A study of Rattus norvegicus with 6 samples.

Results

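The 42 genes described here mark neutrophils, monocytes, macrophages and leukocytes in general, and were followed in rat hind-limb muscle after 18 h of ACS, short for acute osteofascial compartment syndrome. They were taken by symbol from a deposited table of 30957 genes, and all 42 were present. ACS is a rise of pressure in a muscle's fascial sheath that cuts down its perfusion, and here it was induced with an elastic band tied round the knee in a loop shorter than the girth of the leg there. RNA came from the flexor digitorum longus, a toe flexor, of wild-type Sprague-Dawley rats, and their age was not known here. The 2 groups were muscle at 18 h of ACS and control muscle at 0 h, with 3 libraries each. They were taken from the titles and times, because the treatment label reads ACS for every sample. The control is a 0 h group, so the condition and the time since the band was tied cannot be told apart. Nothing in the labels says that the libraries within a group are different rats, and p-values then describe the spread of these samples alone, part of which may be technical.

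The members were split by what they are known to mark. The granulocyte class held 9 genes, the monocyte class 7, a class shared among myeloid cells 7, a class of macrophages 8 with the usual markers of cells resident in tissue, and a pan-leukocyte class 8. The growth factors Csf3 and Csf1, which act on these cells rather than mark them, and Cd4, which in the rat is carried by monocytes and macrophages as well as by helper T cells, were kept apart. Several genes cross the classes: Itgam, Trem1 and Clec4e, for example, are found on both neutrophils and monocytes.

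Neutrophils are short-lived cells of the blood that enter damaged tissue within hours, store antimicrobial proteins in granules and are drawn by chemokines through receptors such as Cxcr2. Monocytes follow from the blood and can become macrophages, while muscle at rest holds its own macrophages, which carry scavenger receptors such as Cd163 and Mrc1. The transcription factor PU.1, the product of Spi1, is required for the myeloid lineages, and C/EBP factors act with it in granulocytes.

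Muscle fibre genes were abundant in all 6 libraries, which fits the labelled tissue: 7 measured fibre genes, Acta1 and Ckm among them, summed to 80300 to 196700 CPM (counts scaled by library size with TMM factors) in ACS and 126000 to 149900 CPM in control muscle. Library totals lay between 14340865 and 21003928 counts. ACS replicate 1 stood apart, with 43.4% of its counts on the mitochondrial chromosome against 4.82% to 8.60% in the other 5 libraries. It was the highest ACS library for 39 of the 41 members with any count, so the members' fold changes are also given without it. The 42 members together took 0.249%, 0.0335% and 0.0354% of the counts in ACS replicates 1, 2 and 3, and 0.0114%, 0.0147% and 0.0131% in control replicates 1, 2 and 3. The lowest ACS total was above the highest control total. In whole muscle, more cells of a type and more RNA per cell cannot be told apart.

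Sequence upstream of the start was available from RefSeq (rat build GRCr8) for 28 of the 42 members. The 250 bases before the start are shown for 6 of them, because these genes carry the main contrasts below: 3 granulocyte genes that rose (Mmp8 at chr8:13008640-13008889 on the plus strand, Csf3r at chr5:143582970-143583219 on the plus strand and Cxcr2 at chr9:83178395-83178644 on the plus strand), Clec4e with no count in control muscle (chr4:158298468-158298717, minus strand), and 2 macrophage genes that were not called (Adgre1 at chr9:2329190-2329439 and Csf1r at chr18:56834129-56834378, both on the plus strand). Capitals mark the letters GAGGAA, a core of the PU.1 site, and TTGCNNAA, letters like those of a C/EBP site, on either strand.
Mmp8: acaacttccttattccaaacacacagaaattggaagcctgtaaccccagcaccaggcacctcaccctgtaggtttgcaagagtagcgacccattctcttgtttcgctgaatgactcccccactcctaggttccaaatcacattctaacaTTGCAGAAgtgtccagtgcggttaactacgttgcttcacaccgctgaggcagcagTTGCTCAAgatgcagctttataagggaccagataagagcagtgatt
Csf3r: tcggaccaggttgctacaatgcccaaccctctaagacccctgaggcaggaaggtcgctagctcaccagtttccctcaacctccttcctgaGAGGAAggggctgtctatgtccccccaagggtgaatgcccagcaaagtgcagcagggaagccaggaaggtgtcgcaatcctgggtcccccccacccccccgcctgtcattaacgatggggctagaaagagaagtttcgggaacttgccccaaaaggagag
Cxcr2: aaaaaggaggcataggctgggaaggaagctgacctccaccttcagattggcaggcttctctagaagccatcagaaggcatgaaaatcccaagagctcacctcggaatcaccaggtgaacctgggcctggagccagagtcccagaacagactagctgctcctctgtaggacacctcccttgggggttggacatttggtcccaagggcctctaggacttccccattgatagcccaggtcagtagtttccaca
Clec4e: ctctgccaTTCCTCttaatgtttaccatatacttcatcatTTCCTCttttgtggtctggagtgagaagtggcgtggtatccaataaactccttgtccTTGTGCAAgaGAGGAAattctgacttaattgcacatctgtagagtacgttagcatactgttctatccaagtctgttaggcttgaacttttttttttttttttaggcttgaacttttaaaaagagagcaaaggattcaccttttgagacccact
Adgre1: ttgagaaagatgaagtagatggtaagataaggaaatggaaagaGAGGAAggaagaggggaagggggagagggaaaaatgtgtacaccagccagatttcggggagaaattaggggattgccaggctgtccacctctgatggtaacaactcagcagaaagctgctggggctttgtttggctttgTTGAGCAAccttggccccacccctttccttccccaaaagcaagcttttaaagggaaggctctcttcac
Csf1r: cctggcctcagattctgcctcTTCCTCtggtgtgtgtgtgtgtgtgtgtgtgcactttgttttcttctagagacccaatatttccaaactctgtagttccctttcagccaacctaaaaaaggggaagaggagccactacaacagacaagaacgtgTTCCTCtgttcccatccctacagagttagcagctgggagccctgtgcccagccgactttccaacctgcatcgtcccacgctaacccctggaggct

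Clec4e held GAGGAA at 3 places and TTGCNNAA at 1, between 153 and 146 bases before the start, and none of these overlapped. Mmp8 held TTGCNNAA at 2 places (101 to 94 and 46 to 39 bases before the start) and no GAGGAA, Csf3r held 1 GAGGAA, and Cxcr2 held neither. Of 28 member windows 60.7% held GAGGAA and 25.0% held TTGCNNAA, against 23.3% and 9.22% of all 33469 windows of the same length. By class, GAGGAA was in 4 of 8 granulocyte windows and in 6 of 7 macrophage windows, among them those of Adgre1 and Csf1r. TTGCNNAA was in 2 of 8 granulocyte, 3 of 6 monocyte, 1 of 7 macrophage and 0 of 5 pan-leukocyte windows. A match describes the letters and is not a measured site.

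Counts of 36 members passed the filter on low counts and were tested with edgeR's quasi-likelihood test, with p adjusted over all 12873 genes tested. At an adjusted p under 0.05, 12 members rose in ACS muscle and 0 fell: S100a8, S100a9, Mmp8, Cxcr2, Csf3r and Trem1 among granulocyte genes, Csf2rb and Clec4e among monocyte genes, Itgam, Gpnmb, Csf3 and Csf1. Over all genes tested, 3.43% were called higher and 0.707% lower. At an unadjusted p under 0.05, 33 members were higher and 1, Adgre1, was lower, beside 15.5% and 7.98% of all genes tested. By DESeq2 26 members were called higher and 0 lower, beside 7.01% called higher of the 18776 genes given a fold change. It gave no adjusted p for Trem1, Ccr1, Lyz2, Fcer1g, Fgr and Msr1, so Trem1 was not among its calls. By limma-voom 2 members were called higher and 0 lower, beside 2.04% of all genes tested called higher. The filter bears on these counts: 10 of the 36 were under its limit of 0.530 CPM in at least 1 control library, and these gave 8 of the 12 calls. Of the 10, 9 were above it in every ACS library and so passed through their ACS level, and Cd52 was above it in 2 ACS libraries and 1 control library. Every ACS library was above every control library for 28 of the 42 members, as it was for 16.7% of all genes tested. Of the 26 members above that limit in every control library, 4 were called: Csf2rb, Itgam, Gpnmb and Csf1.

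By class, the medians of the log2 fold changes over tested members were 5.79 for granulocyte genes (n = 6), 4.41 for monocyte genes (n = 5), 3.09 for pan-leukocyte genes (n = 8), 3.08 for shared myeloid genes (n = 7) and 1.90 for macrophage genes (n = 7), beside a median of -0.01 over all genes tested. With Clec4e set at its lower bound the monocyte median was also 4.41. Without ACS replicate 1 the same medians were 4.26, 2.23, 1.42, 1.50 and 0.95. All 6 tested granulocyte genes passed the filter only through their ACS level, and the 3 lowest of that class were left out by it, so the class median is conditioned on a high ACS level and supports no order of the classes. The members share these libraries and were chosen with earlier results known, and the medians are descriptions with no test.

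**Figure D1:**
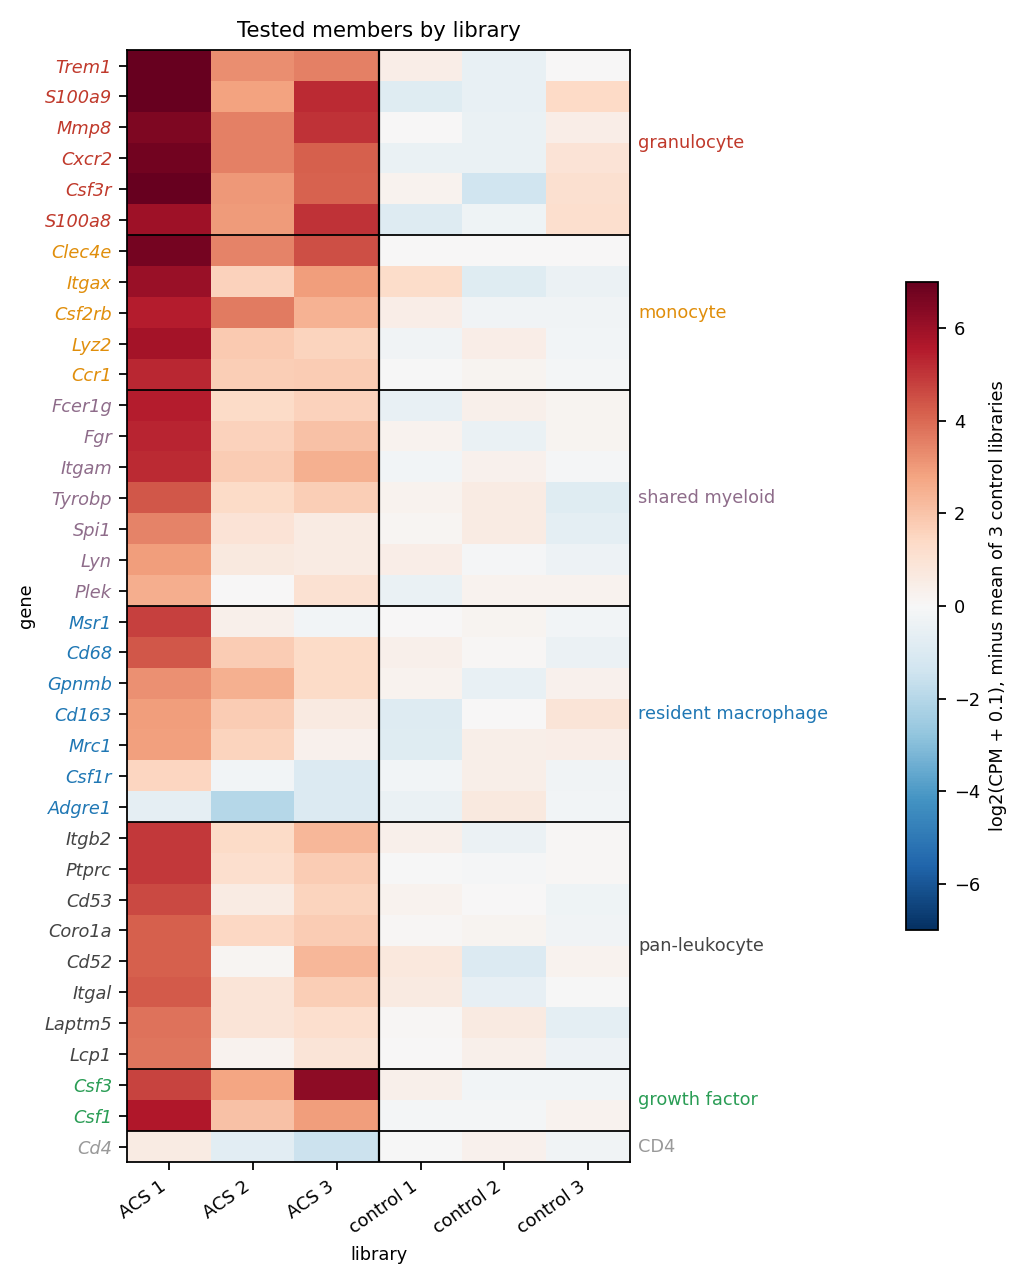
Each row is 1 of the 36 tested members and each column 1 library, ACS at left and control at right; colour gives log2(CPM + 0.1) minus the mean of the 3 control libraries, and the darkest red also stands for values above the scale's end of 7. Granulocyte genes at the top are red in all 3 ACS libraries, while in the macrophage block ACS replicate 1 is the reddest and Adgre1 is blue in all 3.

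The 6 tested granulocyte genes, of 9 listed, all rose; each had passed the filter only through its ACS level, so this count is not support for the class. S100a8 and S100a9 encode the subunits of calprotectin, a calcium- and zinc-binding protein that fills the neutrophil cytosol. S100a8 measured 33.9, 4.27 and 18.3 CPM in ACS replicates 1, 2 and 3, against 0.195, 0.339 and 1.16 CPM in control replicates 1, 2 and 3. S100a9 measured 122, 4.79 and 26.5 CPM in ACS muscle, against 0.293, 0.387 and 1.74 CPM in control muscle. Every ACS library was above every control library for both genes, ACS replicate 2 was the lowest of its group and control replicate 3 the highest of its own. The log2 fold changes were 5.01 (SE 0.895, adjusted p = 0.0287) for S100a8 and 5.95 (SE 1.24, adjusted p = 0.0397) for S100a9. They were 4.27 and 4.24 without ACS replicate 1, and 6.05 and 7.15 without control replicate 3. In FPKM, which also divides by gene length, S100a8 stood at 0.388, 1.25 and 0.967 of the level of S100a9 in the ACS libraries and at 0.934, 1.23 and 0.934 in the control libraries. The genes lie close together on chromosome 2 of Rnor 6.0, S100a8 at 190073815 to 190074354 on the plus strand and S100a9 at 190097554 to 190100276 on the minus strand.

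Mmp8, the collagenase stored in neutrophil granules, measured 31.8, 3.86 and 11.4 CPM in ACS muscle, against 0.244, 0.145 and 0.372 CPM in control muscle. Its log2 fold change of 5.89 (SE 0.859, adjusted p = 0.0155) had the smallest adjusted p of the members, and was 4.85 without ACS replicate 1. The gene spans 5768811 to 5778702 on chromosome 8.

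The receptors of this class were highest in ACS replicate 1 and lowest, among ACS libraries, in replicate 2. Cxcr2, which binds neutrophil-attracting CXC chemokines, measured 37.6, 3.81 and 6.25 CPM in ACS muscle, against 0.146, 0.145 and 0.578 CPM in control muscle (log2 fold change 5.70, SE 1.05, adjusted p = 0.0300). Csf3r, the receptor for the granulocyte growth factor Csf3, measured 137, 8.13 and 17.9 CPM in ACS muscle, against 1.12, 0.290 and 2.11 CPM in control muscle (5.50, SE 1.18, adjusted p = 0.0436). Trem1, a receptor that amplifies myeloid inflammatory signals, measured 33.3, 1.23 and 1.51 CPM in ACS muscle, against 0.0975, 0 and 0.0413 CPM in control muscle. For each of the 3 the groups did not overlap, and ACS replicate 1 held between 78.9% and 92.4% of the summed ACS level. Without ACS replicate 1 the log2 fold change was 4.05 for Cxcr2 and 3.45 for Csf3r, and without control replicate 3 it was 6.64 and 6.19. Trem1 had 407 ACS counts and 3 control counts, a ratio of 185 with a 95% counting interval from 62.8 to 899, and an adjusted p of 0.0442. Its ratio was 29.8 (9.63 to 149) without ACS replicate 1, 292 without ACS replicate 2 and 380.3 without control replicate 1.

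The 3 other granulocyte genes were too low to test. Fpr1, a receptor for bacterial and mitochondrial formyl peptides, had 7, 3 and 8 counts in ACS muscle and 1, 1 and 0 in control muscle, which is a 12.3-fold ratio (counting interval 2.93 to 109), or 7.72-fold without control replicate 3. Its paralog Fpr2 had 1 count in ACS muscle and 0 in control muscle. Cxcr1, the sister receptor of Cxcr2, was listed at 0 in all 6 libraries, although it lies near Cxcr2 on chromosome 9. Col1a2, a collagen gene that fibroblasts use throughout the body, was also listed at 0 in all 6 libraries, so a 0 here gives only what the table lists.

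Both growth factors rose. Csf3, which drives the making and release of neutrophils, measured 2.90, 0.669 and 8.82 CPM in ACS muscle, against 0.0488, 0 and 0 CPM in control muscle. It was 1 of the few members for which ACS replicate 3, and not replicate 1, was the highest; the other was Trem2. With 202 ACS counts and 1 control count the ratio was 275 (counting interval 48.8 to 10910), with an adjusted p of 0.0271. It was 95.5 without ACS replicate 3, 432 without ACS replicate 2, 173 without control replicate 3 and at least 62.9 without control replicate 1. Csf1, the growth factor of macrophages, measured 289, 23.8 and 44.9 CPM in ACS muscle, against 5.31, 5.27 and 6.81 CPM in control muscle (log2 fold change 4.36 with an SE of 0.896, adjusted p = 0.0387, and 2.56 without ACS replicate 1). The lowest ACS library was well above the highest control. Its receptor Csf1r, by contrast, did not pass the test, and Csf1 over Csf1r in FPKM was 9.64, 2.54 and 8.38 in ACS muscle, against 0.568, 0.379 and 0.756 in control muscle.

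**Figure D2:**
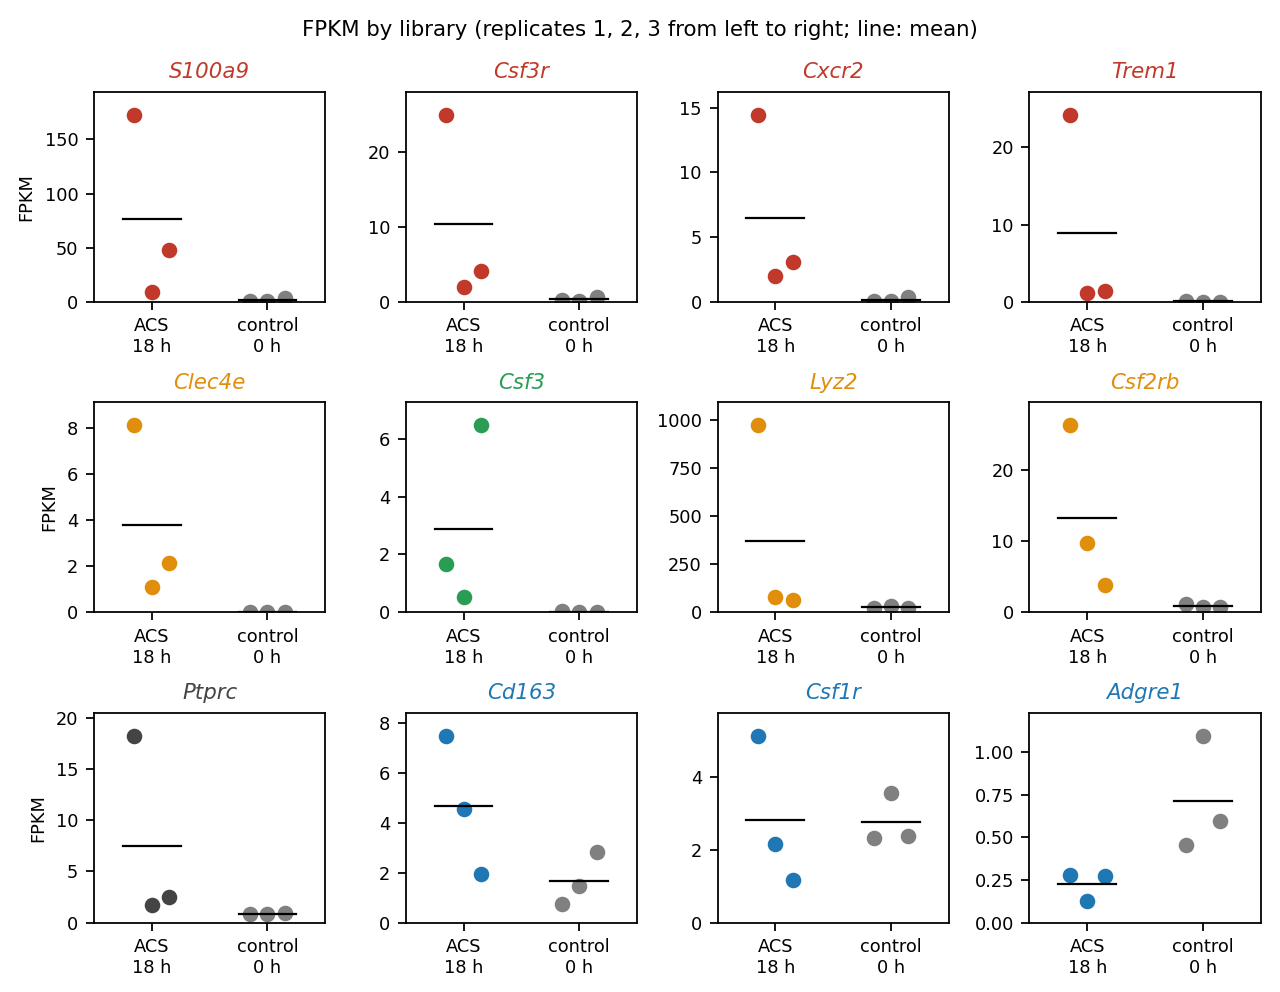
FPKM of 12 members in each library on linear axes that start at 0, with ACS 18 h at left, control 0 h at right and the group mean as a line. In every panel but those of Csf3 and Adgre1 most of the ACS mean comes from replicate 1, most strongly for Lyz2 and Trem1. For Csf3 replicate 3 is the highest, and for Adgre1 the ACS libraries lie below the controls.

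Of the 7 monocyte genes 5 were tested and 2 rose. Csf2rb, the signalling chain of the receptors for GM-CSF and interleukin 3, measured 118, 32.5 and 13.6 CPM in ACS muscle, against 3.51, 2.08 and 2.07 CPM in control muscle. Its groups were well apart, at a log2 fold change of 4.41 (SE 0.776, adjusted p = 0.0276) with all libraries and of 3.17 without ACS replicate 1, and it was called in 16 of 19 alternatives, the most of any member. Clec4e, a receptor that senses dead cells and mycobacterial glycolipids, measured 10.4, 1.03 and 2.18 CPM in ACS muscle and had 0 counts in all 3 control libraries. With the control group taken at a floor of 3 counts in all, Clec4e was at least 77.1-fold higher in ACS muscle (adjusted p = 0.0363). The bound was 34.4-fold without ACS replicate 1 and 48.6-fold without control replicate 3.

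The other 3 tested monocyte genes had groups that did not overlap, but did not pass the threshold. Lyz2, lysozyme of macrophages and neutrophils, measured 1553, 94.2 and 78.0 CPM in ACS muscle, against 22.2, 36.6 and 23.8 CPM in control muscle (log2 fold change 4.38, SE 1.15, adjusted p = 0.0649). It was the most abundant member per length in both groups, at 371 FPKM on average in ACS and 25.9 FPKM in control muscle. Without ACS replicate 1 it passed, with a smaller log2 fold change of 1.64 (adjusted p = 0.0131). A close copy, Lyc2, had 177 counts over all libraries beside 21617 of Lyz2, and reads shared by the pair are uncertain. Ccr1, a receptor for CC chemokines, measured 29.1, 2.42 and 2.51 CPM in ACS muscle, against 0.634, 0.774 and 0.578 CPM in control muscle. It too passed without ACS replicate 1 (log2 fold change 4.07, adjusted p = 0.0588, and 1.89, adjusted p = 0.0365, without that library). Itgax, an integrin of dendritic cells and macrophages, measured 41.3, 1.80 and 4.58 CPM in ACS muscle, against 1.41, 0.242 and 0.372 CPM in control muscle. ACS replicate 2 lay just above control replicate 1, and Itgax passed neither with all libraries (4.54, adjusted p = 0.0717) nor without ACS replicate 1 (2.23, adjusted p = 0.104).

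The chemokine receptors that separate classical from patrolling monocytes had few counts. Ccr2, the receptor for the monocyte chemoattractant Ccl2, had 15, 2 and 1 counts in ACS muscle and 1, 2 and 0 in control muscle. Cx3cr1, the fractalkine receptor, had 6, 7 and 2 counts in ACS muscle and 4, 2 and 2 in control muscle. The groups overlapped for both, and neither was tested.

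All 7 genes shared among myeloid cells were tested and 1 rose. Itgam, the alpha chain of the integrin Mac-1, measured 55.3, 4.94 and 7.98 CPM in ACS muscle, against 1.17, 1.69 and 1.28 CPM in control muscle (log2 fold change 4.03 with an SE of 0.901, adjusted p = 0.0470, and 2.22 without ACS replicate 1). The annotated spans of Itgam and Itgax overlap on the same strand of chromosome 1, so reads of the pair may not be told apart. With TMM factors taken without haemoglobin and mitochondrial genes its log2 fold change was 4.02, with an adjusted p of 0.0502. Fgr, a Src-family kinase of myeloid cells, measured 39.7, 2.88 and 3.96 CPM in ACS muscle, against 1.07, 0.629 and 1.03 CPM in control muscle (4.07, adjusted p = 0.0588). Fgr passed without ACS replicate 1, at a smaller log2 fold change of 1.90 (adjusted p = 0.0343). Fcer1g and Tyrobp, the signalling adaptors of Fc receptors and of Trem receptors, had log2 fold changes of 4.14 (adjusted p = 0.0743) and 3.08 (adjusted p = 0.0750), and each came to 1.50 without ACS replicate 1. Fcer1g measured 51.9, 2.78 and 3.35 CPM in ACS muscle, against 0.683, 1.35 and 1.20 CPM in control muscle, and Tyrobp measured 23.9, 2.98 and 3.80 CPM in ACS muscle, against 1.32, 1.69 and 0.578 CPM in control muscle.

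Fcer1g had the highest mean FPKM of this class in ACS muscle, with 61.3, 4.42 and 5.03 FPKM in ACS muscle, against 1.18, 2.41 and 2.19 FPKM in control muscle. Spi1 measured 12.5, 2.16 and 1.62 CPM in ACS muscle, against 1.17, 1.60 and 0.620 CPM in control muscle, so ACS replicate 3 was close to the highest control (2.25, adjusted p = 0.140; 0.74 without ACS replicate 1). The kinase Lyn measured 47.4, 10.3 and 9.49 CPM in ACS muscle, against 8.73, 5.85 and 4.79 CPM in control muscle. Lyn and Plek, a protein of platelets and leukocytes, had the lowest log2 fold changes of the class, at 1.79 (adjusted p = 0.132) and 1.55 (adjusted p = 0.170), or 0.61 and 0.62 without ACS replicate 1, and the groups of Plek overlapped. Plek also overlaps Cnrip1 on the other strand, and without known use of strand their reads may not be told apart. Of the 7 genes 6 had every ACS library above every control library.

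The macrophage class was mixed in direction. Of 7 tested genes 1 rose, Gpnmb, a glycoprotein of macrophage lysosomes, which measured 38.7, 23.7 and 10.6 CPM in ACS muscle, against 4.88, 2.85 and 5.16 CPM in control muscle. Its log2 fold change was 2.495 (SE 0.489, adjusted p = 0.0339), and it passed without ACS replicate 1 (1.99, adjusted p = 0.0244) but not without ACS replicate 2 (adjusted p = 0.0637). Cd68, a lysosomal protein of phagocytes, measured 21.8, 3.60 and 2.57 CPM in ACS muscle, against 1.27, 1.02 and 0.702 CPM in control muscle; the groups did not overlap, but the gene did not pass (3.21, SE 0.827, adjusted p = 0.0626; 1.63 without ACS replicate 1).

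The scavenger receptors gave overlapping groups. Cd163, which takes up haemoglobin bound to haptoglobin, measured 46.2, 20.9 and 9.43 CPM in ACS muscle, against 3.17, 6.05 and 11.2 CPM in control muscle (log2 fold change 1.90, 95% interval 0.47 to 3.33, adjusted p = 0.114). Mrc1, the mannose receptor, measured 54.9, 22.5 and 9.15 CPM in ACS muscle, against 4.10, 10.1 and 10.3 CPM in control muscle (1.82, 95% interval 0.38 to 3.25, adjusted p = 0.127). ACS replicate 3 was below the highest control library for both, and without ACS replicate 1 the log2 fold changes were 1.15 for Cd163 and 0.95 for Mrc1. Msr1, the type A scavenger receptor, was high only in ACS replicate 1, with 28.9, 1.29 and 0.837 CPM in ACS muscle, against 0.975, 1.11 and 0.826 CPM in control muscle. Its log2 fold change was 3.39 (adjusted p = 0.142) with that library and 0.13 (adjusted p = 0.907) without it.

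The remaining 3 macrophage genes did not pass or were not tested, and none had all ACS libraries above the controls. Csf1r, the receptor by which macrophages are kept alive, measured 31.6, 9.88 and 5.64 CPM in ACS muscle, against 9.85, 14.7 and 9.50 CPM in control muscle. Its log2 fold change of 0.46 (95% interval -0.85 to 1.77, adjusted p = 0.653) was -0.55 without ACS replicate 1. Adgre1, the F4/80 antigen of macrophages, was lower in every ACS library, with 1.22, 0.412 and 0.949 CPM, than in every control library, with 1.37, 3.19 and 1.69 CPM. Its log2 fold change of -1.30 (SE 0.559, 95% interval -2.58 to -0.03) did not pass (adjusted p = 0.203) and was -1.61 without ACS replicate 1, and 14.8% of all genes tested were separated in this direction. Trem2, a lipid-sensing receptor of macrophages, was not tested: it had 3, 7 and 7 counts in ACS muscle and 9, 15 and 11 in control muscle. The full values of Csf1r and Trem2 are given because of what they showed, not by the rule for named genes.

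**Figure D3:**
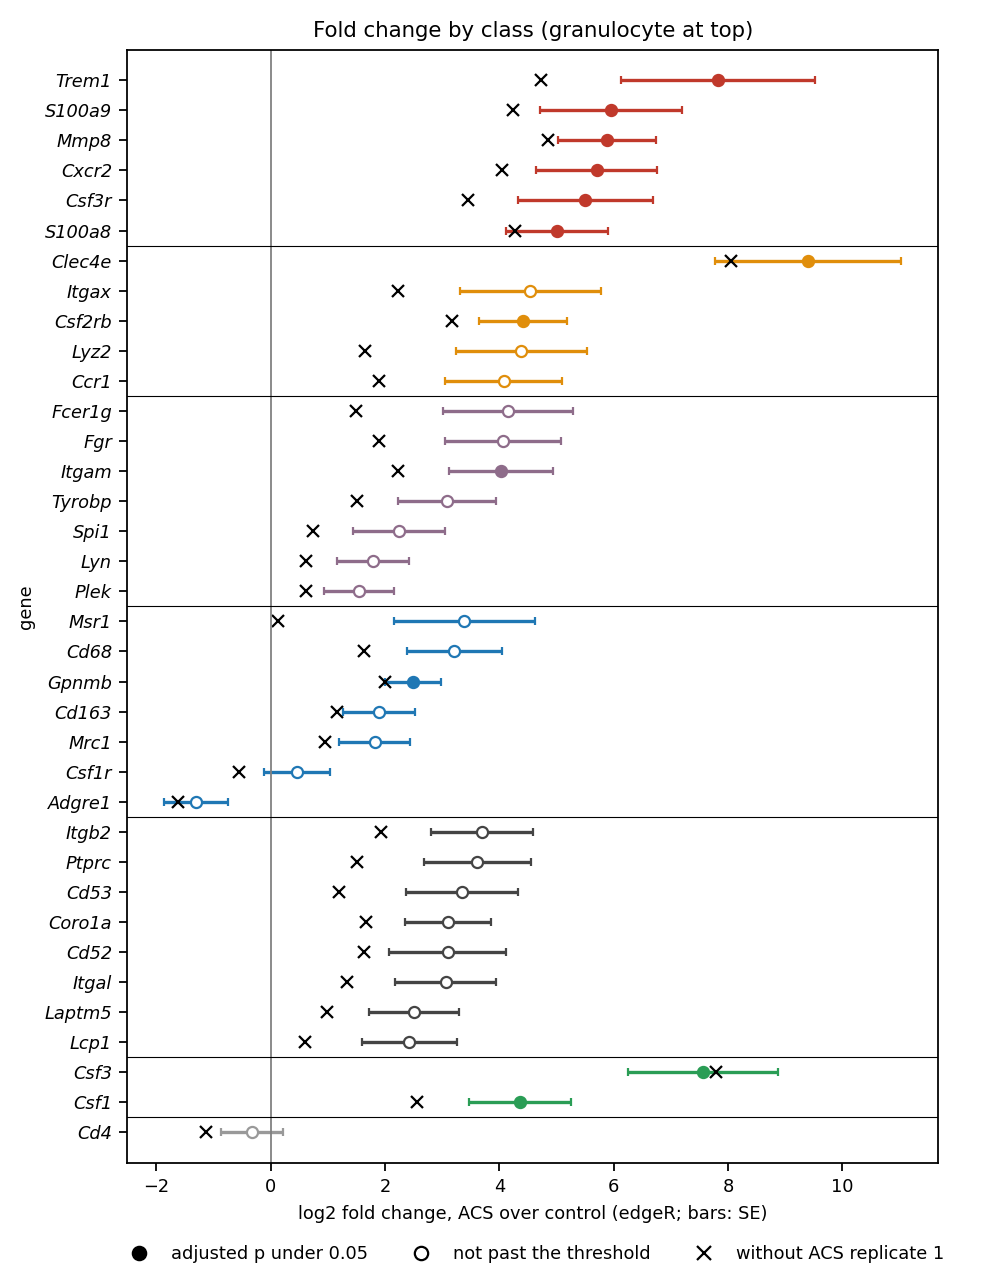
Log2 fold change of ACS over control for the 36 tested members, by class with granulocyte genes at the top; circles with SE bars are from all 6 libraries, filled where the adjusted p is under 0.05, and crosses leave out ACS replicate 1. Without that library Csf3r, at 3.45, is the lowest of the granulocyte genes, while Msr1 comes to 0.13 and Csf1r and Adgre1 lie below 0. The fitted values of Clec4e, Csf3 and Trem1 rest on 0 to 3 control counts and depend on the prior count.

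Of 8 pan-leukocyte genes, all tested, 0 passed in edgeR, although all 8 had an unadjusted p under 0.05 and a positive log2 fold change, between 2.42 and 3.69. By DESeq2 8 passed, by limma-voom 0. Ptprc, the CD45 phosphatase carried by all nucleated leukocytes, measured 124, 8.90 and 13.6 CPM in ACS muscle, against 3.85, 3.77 and 4.25 CPM in control muscle (log2 fold change 3.61, SE 0.939, adjusted p = 0.0640). Itgb2, the beta chain shared by the leukocyte integrins, measured 50.5, 4.07 and 8.20 CPM in ACS muscle, against 2.00, 1.16 and 1.65 CPM in control muscle (3.69, SE 0.895, adjusted p = 0.0560). The groups of both genes were separate. Without ACS replicate 1 the fold changes were smaller but Ptprc (1.50, adjusted p = 0.0225), Itgb2 (1.93, adjusted p = 0.0299) and Coro1a (1.66, adjusted p = 0.0313) passed. Coro1a, an actin-binding protein of leukocytes, measured 27.0, 3.86 and 4.86 CPM in ACS muscle, against 1.46, 1.55 and 1.12 CPM in control muscle.

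The other pan-leukocyte genes had the same sign. Itgal, the alpha chain of LFA-1, Cd53, a tetraspanin, and Laptm5, a lysosomal protein of leukocytes, had log2 fold changes of 3.06, 3.35 and 2.51 and separate groups. Leaving out ACS replicate 1 made these 1.34, 1.20 and 0.99. Itgal measured 24.1, 2.16 and 3.85 CPM in ACS muscle, against 1.76, 0.726 and 1.07 CPM in control muscle. Cd53 measured 33.8, 1.96 and 3.96 CPM in ACS muscle, against 1.51, 1.31 and 1.03 CPM in control muscle. Lcp1, the actin bundler L-plastin, measured 111, 9.88 and 15.9 CPM in ACS muscle, against 8.44, 10.6 and 6.36 CPM in control muscle, and Cd52, a small surface glycoprotein, also had groups that overlapped. Their log2 fold changes were 2.42 and 3.09, or 0.60 and 1.64 without ACS replicate 1. Cd4 measured 6.27, 2.42 and 1.40 CPM in ACS muscle, against 3.999, 5.08 and 3.43 CPM in control muscle, with a log2 fold change of -0.33 (95% interval -1.56 to 0.90, adjusted p = 0.734) that was -1.12 without ACS replicate 1 and turned to 0.03 without ACS replicate 3. In control muscle it was the third member by FPKM, after Lyz2 and Csf1r.

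Within a library, classes were set against each other by their summed FPKM, and not every ratio separated the groups. Single genes weigh heavily in these sums. In ACS replicate 1 Lyz2 stood at 973 FPKM and all monocyte genes at 1030 FPKM. In ACS replicate 3 S100a9 and S100a8 stood at 47.6 and 46.0 FPKM and all granulocyte genes at 106.9 FPKM. Summed FPKM of granulocyte genes over that of macrophage genes was 6.24, 1.10 and 9.06 in ACS replicates 1, 2 and 3, against 0.215, 0.182 and 0.712 in control replicates 1, 2 and 3. Over pan-leukocyte genes the granulocyte sum stood at 3.09, 2.28 and 5.24 in ACS muscle, against 0.215, 0.265 and 1.297 in control muscle. Neither ratio overlapped between the groups, and neither was tested. The monocyte sum over the macrophage sum was 20.5, 3.72 and 5.98 in ACS muscle, against 2.68, 3.14 and 2.04 in control muscle. That ratio did not overlap between the groups either, and it was not tested. Over monocyte genes the granulocyte sum stood at 0.304, 0.295 and 1.51 in ACS muscle, against 0.0801, 0.0581 and 0.349 in control muscle. There control replicate 3 was above ACS replicates 1 and 2 in FPKM. In CPM control replicate 3, at 0.223, was above ACS replicate 2, at 0.198, but not above ACS replicate 1, at 0.226. Macrophage genes over pan-leukocyte genes gave 0.495, 2.08 and 0.579 in ACS muscle, against 1.00, 1.45 and 1.82 in control muscle. There ACS replicate 2 was the highest of all 6 libraries in FPKM. In CPM it stood at 2.19, just below control replicate 3 at 2.22.

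ACS replicates 2 and 3 also differed from each other by class. ACS replicate 3 was above replicate 2 for 6 of 6 tested granulocyte genes and 8 of 8 pan-leukocyte genes, but for 1 of 7 macrophage genes, beside 47.3% of all genes tested. The monocyte class, with 3 of 5, and the shared myeloid class, with 5 of 7, lay between. Summed granulocyte genes stood at 26.2 and 82.3 CPM in ACS replicates 2 and 3, and macrophage genes at 82.6 and 39.6 CPM. This is a description of 2 libraries, and 1 of them, ACS replicate 3, is also 1 of the 2 libraries (with control replicate 3) whose description holds "ji". With a term for those libraries 4 members were called higher, S100a8, Mmp8, Csf2rb and Csf3, beside 1.93% of all genes tested, and without both of them 2 were, Csf2rb and Gpnmb, beside 1.31%.

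Genes of blood were also higher in sum in ACS muscle. A list of red cell and platelet genes, 9 of them measured and none at 0 in all libraries, summed to 488 to 1122 CPM in ACS and 89.3 to 263 CPM in control muscle. Of 6 tested, 2 rose, beside 3.43% of all genes tested. These were Alas2, the first enzyme of haem synthesis in red cells (log2 fold change 2.73, adjusted p = 0.0439), and the globin Hbb (2.19, adjusted p = 0.0442). The groups overlapped for 6 of the 9 measured genes. Haemoglobin genes took 1.26%, 0.293% and 0.614% of the counts in ACS replicates 1, 2 and 3, and 0.207%, 0.0759% and 0.195% in control replicates 1, 2 and 3. ACS replicate 2 was the lowest of its group here as in the granulocyte genes, but the highest library differed by list. Red cell and platelet genes summed to 1013 CPM in ACS replicate 1 and 1122 CPM in ACS replicate 3. Granulocyte genes summed to 396 and 82.3 CPM in the same libraries. Without ACS replicate 1 the summed ratio of ACS to control was 4.34 for the red cell and platelet genes and 17.2 for the granulocyte genes. The other classes were below the red cell and platelet genes: 3.69 for monocyte, 2.24 for pan-leukocyte, 2.19 for shared myeloid and 1.74 for macrophage genes. The part of blood held in the tissue in these results was not tested.

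**Figure D4:**
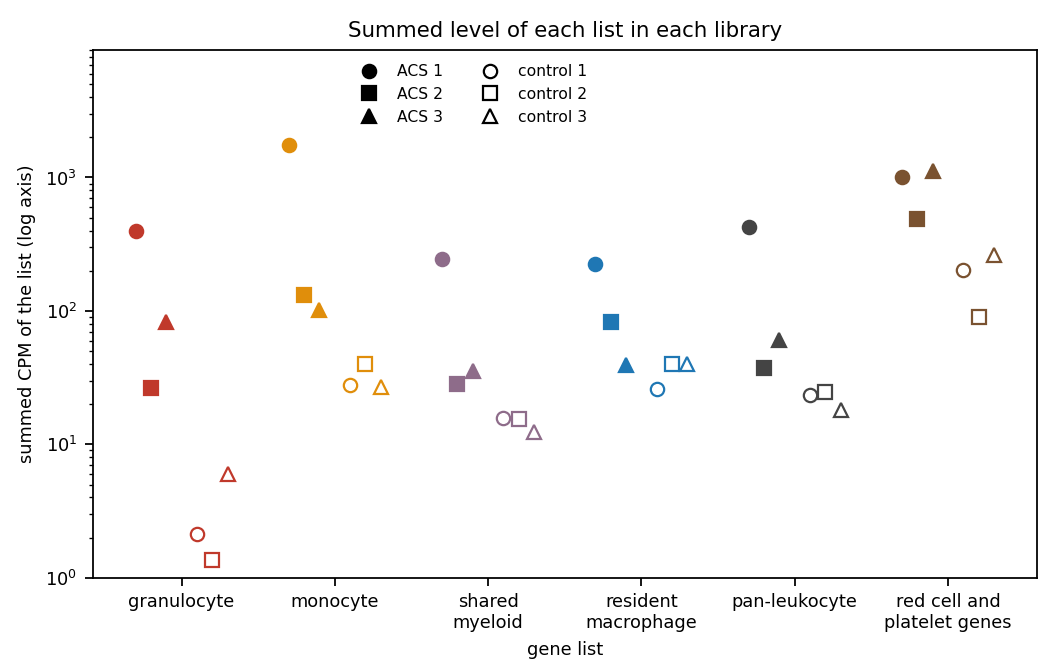
Summed CPM of each class and of the red cell and platelet genes in each library on a log axis, filled for ACS and open for control, with 1 symbol for each replicate number. Granulocyte sums run from 26.2 to 396 CPM in ACS and from 1.35 to 5.99 CPM in control muscle, while the macrophage sum of ACS replicate 3, at 39.6 CPM, lies among the controls.

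Further genes of the same cells were read from lists of 20 neutrophil and 20 monocyte and macrophage genes. Of 11 tested neutrophil genes 4 rose and 0 fell, beside 3.43% called higher and 0.707% called lower of all genes tested. The median log2 fold change of the list was 3.58. Of the 4, Slpi, Il1r2 and Mmp9 were under the filter's limit in at least 1 control library and passed it through their ACS level. Their calls are therefore conditioned on a high ACS level. Slpi, an inhibitor of neutrophil elastase, was at 48.9, 2.06 and 5.75 CPM in ACS muscle, against 0, 0.0967 and 0.0826 CPM in control muscle (adjusted p = 0.0294). Il1r2, the decoy receptor for interleukin 1, was at 78.8, 5.71 and 9.66 CPM in ACS muscle, against 0, 0.0967 and 0.537 CPM in control muscle (adjusted p = 0.0319). Lcn2, which binds bacterial siderophores, was at 49.9, 16.2 and 5.08 CPM in ACS muscle, against 0.634, 1.21 and 1.90 CPM in control muscle (adjusted p = 0.0341), and Mmp9 was the fourth. Ncf1, a subunit of the phagocyte oxidase, had the opposite sign, at 12.1, 8.90 and 5.80 CPM in ACS muscle, against 21.2, 19.7 and 10.8 CPM in control muscle (log2 fold change -0.95, unadjusted p = 0.0336, adjusted p = 0.173). Among the 9 genes too low to test, Mpo, Elane, Prtn3 and Camp had at most 9 counts over the 3 ACS libraries. Ltf and Cd177 were listed at 0 throughout. The rest of the untested genes were higher in ACS muscle, with groups that did not overlap in CPM. Hcar2 had 144, 10 and 11 counts in ACS muscle, against 2, 0 and 3 in control muscle. For Retnlg the counts were 25, 7 and 20 against 6, 4 and 3. For Padi4 they were 25, 8 and 5 against 1, 5 and 2. There ACS replicate 3, at 0.279 CPM, lay just above control replicate 2, at 0.242 CPM.

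Of 14 tested monocyte and macrophage genes 1 rose, Lgals3, which encodes the lectin galectin-3, at 29.8, 19.96 and 15.1 CPM in ACS muscle, against 3.17, 3.24 and 8.59 CPM in control muscle (log2 fold change 2.11, SE 0.470, adjusted p = 0.0470). The median of the list was 1.16. Lyve1, a hyaluronan receptor of resident macrophages and lymphatic vessels, had separate groups and a log2 fold change of 2.02 (adjusted p = 0.0534). The complement genes C1qa, C1qb and C1qc had log2 fold changes of 0.09 (adjusted p = 0.900), 0.91 (adjusted p = 0.195) and 1.15 (adjusted p = 0.0828), and the groups of C1qb and C1qc were separate. Siglec1, a lectin of resident macrophages, was at -0.07 (adjusted p = 0.948).

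The number of calls depended on single libraries. Leaving out ACS replicate 1, 2 or 3 in turn gave 18, 15 and 28 members called higher, and the 12 called with all libraries were all among the 18. Over all genes tested in these refits 4.99%, 2.14% and 9.72% were called higher. Without any 1 control library 0 members passed in edgeR, as did 0 of all genes tested, with 27, 28 and 28 members higher at an unadjusted p under 0.05. Two-sided exact permutation tests over 3 libraries against 3 cannot go below p = 0.1, the value they gave for all 12 called members. Scaling by library totals, under which the median log2 fold change of all genes was -0.32, gave 16 members higher, beside 2.68% of all genes, and relative to that median the class medians were 5.63, 4.28, 2.94, 2.92 and 1.79 in the order given above.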

How the data were processed

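Total RNA depleted of rRNA was sequenced from 6 rat muscle libraries. Per the submitters' processing notes, HISAT2 2.0.4, StringTie 1.3.0 and the build Rnor 6.0 were used; the counting tool and its use of strand were not known here. The authors deposited whole-number counts per gene and FPKM values, of which FPKM served only for levels between genes, ratios within a library and 2 alternative tests. Here, genes were filtered with filterByExpr (minimum count 10, minimum total 15), scaled with TMM and tested with edgeR 4.0.16 (quasi-likelihood test, R 4.3.3), with Benjamini-Hochberg adjustment over 12873 genes; the script was tested on simulated data. DESeq2 1.42.0, limma 3.58.1 (voom, and on log2(FPKM + 1) and log2(FPKM + 0.1)), other scalings and filters, and leaving out each library were alternatives. Library totals were 14340865 to 21003928 counts, and counting intervals (95%) and floors (3 counts over a group) cover counting error only. Sequences are RefSeq's for GRCr8, matched by symbol; motifs were searched on both strands of the 250 bases before the start. Same-numbered libraries did not deviate together (correlations of -0.0625, 0.0123 and 0.0403). Values in every library were given for up to 5 tested members of each class by unadjusted p, the member with the highest mean FPKM, any with a sign opposite to its class, the growth factors and Cd4. Of each further list up to 3 called genes, or else the most abundant gene, were named. Among these, Alas2, Hbb, Cdh5, Acta1 and Cd79a have only a fold change or group means. Trem1, Csf1r, Spi1, Lcp1, the untested members and Lyve1, Siglec1, Ncf1, the C1q genes and the low neutrophil genes were added after their values were seen. The members and lists were chosen with earlier results of these data known.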

Additional observations from a re-analysis of the deposited data

How the results depend on the processing

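The number of members called higher was 12, and 0 were called lower under every setting run. It was 26 with DESeq2, 2 with limma-voom, 24 with no filter on low counts (4.02% of all genes), 4 with a term for the libraries whose description holds "ji" and 2 without both of them. With a replicate block it was 19; the numbers do not pair the samples, and of 3 ACS libraries 1 correlated best with the control of its own number. Leaving out 1 library at a time gave 0 to 28 members. In these refits the class medians of the log2 fold change ranged from 4.26 to 6.43 (granulocyte), 2.23 to 4.89 (monocyte), 1.50 to 3.47 (shared myeloid), 0.95 to 2.41 (macrophage) and 1.42 to 3.54 (pan-leukocyte). With limma on log2(FPKM + 1) the granulocyte median was 2.39 and the shared myeloid median 1.32, on a scale that understates changes of low genes. Csf1r changed sign to -0.18 with quality weights, -0.10 and -0.19 with limma on log2(FPKM + 1) and log2(FPKM + 0.1), and, on leaving out 1 library at a time, ranged from -0.55 to 0.86; Cd4 ranged from -1.12 to 0.034 in the same refits. Of all genes called, 82.9% were higher in ACS, against 60.2% with library totals and 48.2% with limma on log2(FPKM + 1). The causes were not tested. Of 649 values of single members under these settings, 504 kept their direction and side of the threshold, 71 newly passed it, 69 no longer passed and 5 changed sign. Depth limits low genes: Ccr2, Cx3cr1 and Fpr1 did not pass the filter on low counts and have values only in settings without it.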

Other observations

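Lists for other cells of muscle gave 0 calls in either direction by edgeR, beside 3.43% called higher and 0.707% lower of all genes tested. Few of their genes were tested: 0 lymphocyte, 2 mast cell and eosinophil, 7 endothelial, 7 fibroblast and 7 muscle fibre genes. With so few tested, the absence of calls cannot set these lists apart from all genes. None of 14 lymphocyte genes reached the filter: the list summed to 1.13 to 5.15 CPM in ACS and 1.32 to 1.89 CPM in control muscle, and its most abundant gene, Cd79a of B cells, averaged 0.334 FPKM in ACS and 0.384 FPKM in control muscle. Of 9 mast cell and eosinophil genes 2 were tested, and Kit, the stem cell factor receptor, was at 10.3, 11.0 and 3.01 CPM in ACS muscle, against 4.54, 4.31 and 2.48 CPM in control muscle (adjusted p = 0.234).

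Of 7 tested fibroblast genes 4 were higher at an unadjusted p under 0.05, beside 15.5% of all genes tested, and 7 of 7 had a positive log2 fold change. Col1a1, a chain of type I collagen, was at 769, 1490 and 1672 CPM in ACS muscle, against 511, 112 and 449 CPM in control muscle (log2 fold change 1.88, SE 0.576, adjusted p = 0.0968), lowest in ACS replicate 1 among the ACS libraries. The endothelial cadherin Cdh5 had a log2 fold change of 0.82 (adjusted p = 0.320), and the muscle actin Acta1 one of -0.24 (adjusted p = 0.825).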
